A study of Rattus with 6 samples.

Results

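The genes described here are 9 components, regulators and receptors of the complement system: C3, C4b, C1s1, C1ra, Cfb, Cfd, Serping1, Cd55 and C3ar1. They were taken by gene name from the 54012 genes of the deposited table, and all 9 were found, each as a single row. The list was drawn up with values of these libraries in view, and a low value of C4b in si-CDCP1 replicate 3 was part of that choice, so C4b is described without a test. The study profiled RNA of vascular smooth muscle cells from aorta, grown as primary cultures, all of which received angiotensin II (Ang II), a hormone that constricts vessels. In the si-NC group (3 libraries, genotype label WT) the cells carried a control siRNA, and in the si-CDCP1 group (3 libraries) they carried an siRNA against CDCP1, a membrane glycoprotein. The comparison asks how these genes differ after CDCP1 knockdown under Ang II, and no culture without Ang II was analysed here. The labels give the organism as Rattus, whereas the table holds mouse gene identifiers and the submitters' processing notes name the mouse build mm10. Low values may thus not reflect the true level of a transcript.

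Complement is a cascade of blood and tissue proteins that marks microbes and damaged cells. The classical pathway starts when C1q, carrying the proteases C1r and C1s, binds a target, and C1s then cuts C4 and C2. The lectin pathway reaches the same step through MASP proteases, and the alternative pathway amplifies the response through factor B, which factor D cuts. All routes meet at C3, whose fragments coat targets and signal through receptors such as the C3a receptor, and which leads on to the terminal pore. Host cells limit the cascade with inhibitors such as C1 inhibitor, decay-accelerating factor and CD59. The liver makes most plasma complement, but fibroblasts, smooth muscle cells and macrophages make parts of it locally.

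The libraries held 16050517 to 19771638 reads in listed genes, read back from the FPKM. FPKM is a level per base of gene, scaled to a total for each library. Levels of different genes can be compared only as far as their reads mapped equally well, which was not tested. Of the smooth muscle markers, Acta2, Smtn and Cald1 exceeded a mean of 1 FPKM, whereas the defining Tagln, Cnn1 and Myh11 lay between 0 and 0.216 FPKM in every library. The siRNA target Cdcp1 had 0 to 5 reads a library, so the knockdown could not be checked. The library of si-CDCP1 replicate 3 stood apart: its Pearson correlations with the other libraries, across 12080 genes, were 0.979 to 0.983, and the highest correlation of every other library was at least 0.9899. Results that rest on it are given with and without it. In si-CDCP1 replicate 1 the difference from the mean of the other libraries fell with gene length (Spearman rho -0.31 across 12080 genes, against -0.04 to 0.09 in the other 5). Without that library 0 genes passed in limma, as with all 6.

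**Figure D1:**
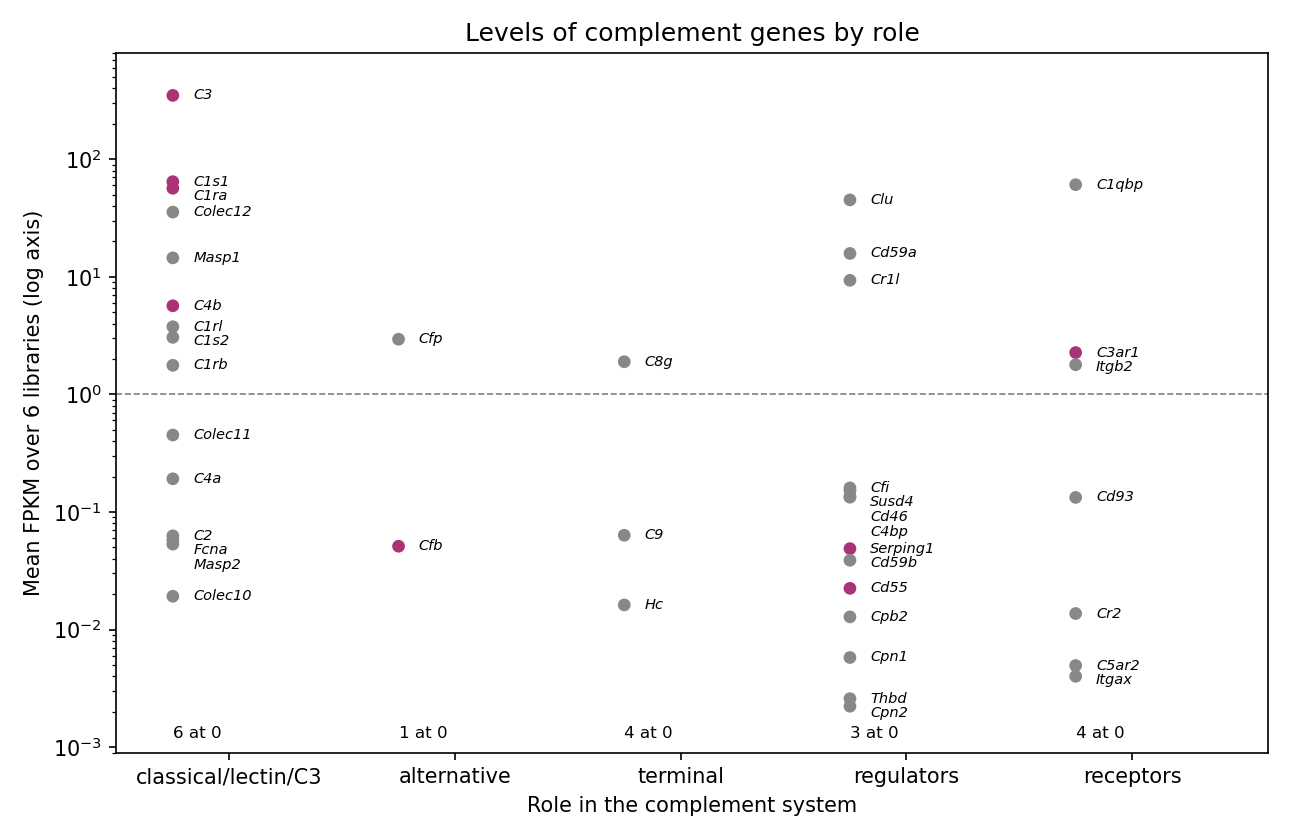
Mean FPKM over the 6 libraries (log axis) of 59 complement gene rows, grouped by role; purple points are the 9 genes described here, grey points the other complement genes, and the dashed line marks 1 FPKM. Names are moved down where they would overlap, and the number of rows with no reads in any library stands below each column. C3 tops the plot and 18 rows have no reads.

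C3, the central component, was the most abundant complement gene in the table. The C3 gene (ENSMUSG00000024164, mm10 chromosome 17, 57203970 to 57228136, minus strand) stood at 332, 372 and 366 FPKM in si-NC replicates 1, 2 and 3 and at 355, 340 and 327 FPKM in si-CDCP1 replicates 1, 2 and 3. The groups overlapped, and C3 ranked between place 52 and place 65 among protein-coding genes by FPKM in the 6 libraries. C3 reads made up 0.162% to 0.194% of all reads in listed genes and 58.3% to 62.8% of the reads of the 59 complement rows counted here.

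The 2 proteases that C1q carries were the next most abundant of the 9 genes, at nearly the same level as each other. C1s1 (ENSMUSG00000038521, chromosome 6, 124530345 to 124542359, minus strand), which encodes C1s, had 57.1, 59.6 and 69.7 FPKM in the si-NC libraries and 70.2, 65.1 and 64.7 FPKM in the si-CDCP1 libraries. C1ra (ENSMUSG00000055172, chromosome 6, 124512405 to 124523443, plus strand), which encodes C1r, the protease that activates C1s, had 56.6, 57.7 and 57.3 FPKM in the si-NC libraries and 57.9, 53.8 and 56.6 FPKM in the si-CDCP1 libraries. For each gene the values of the groups overlapped. The 2 genes point toward each other with 6901 bases between their ends. Their ratio, C1s1 over C1ra, was 1.01, 1.03 and 1.22 in the si-NC libraries and 1.21, 1.21 and 1.14 in the si-CDCP1 libraries. The C1s1 value was thus the higher of the pair in every library, but barely so in si-NC replicates 1 and 2. Whether reads of the pair mapped equally well was not tested, so no order is read from these ratios. C3 exceeded C1s1 by 5.05 to 6.24 times.

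C4b (ENSMUSG00000073418, chromosome 17, 34728380 to 34743882, minus strand) encodes C4, the component that C1s cuts, and was far less abundant than C3. Its values were 6.49, 7.38 and 6.67 FPKM in the si-NC libraries and 5.86, 5.38 and 2.25 FPKM in the si-CDCP1 libraries. The 3 si-CDCP1 libraries lay below all si-NC libraries, and replicate 3 lay far below the other 5. C3 exceeded C4b by 50.4 to 63.3 times in those 5 libraries and by 145 times in si-CDCP1 replicate 3.

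C3ar1 (ENSMUSG00000040552, chromosome 6, 122847138 to 122856161, minus strand), the receptor for the anaphylatoxin fragment of C3, was the only receptor among the 9 genes. It had 1.98, 2.54 and 2.21 FPKM in the si-NC libraries and 1.999, 2.27 and 2.62 FPKM in the si-CDCP1 libraries, on 149 to 178 reads a library. The groups overlapped. C4b was above C3ar1 in all libraries but si-CDCP1 replicate 3, where the exact Poisson 95% intervals of the pair, which cover counting error only, overlapped (1.95 to 2.58 FPKM for C4b and 2.25 to 3.04 FPKM for C3ar1). The C4b value there was part of how the genes were chosen, so nothing is read from the overlap.

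The other 4 genes were near 0 in both groups: the 2 alternative pathway proteases and 2 inhibitors. Cfb, factor B (ENSMUSG00000090231, chromosome 17, 34856374 to 34862518, minus strand), had 2, 1 and 4 reads across si-NC against 3, 4 and 1 across si-CDCP1, which is 0.0217 to 0.0869 FPKM. Cfd, factor D or adipsin (ENSMUSG00000061780, chromosome 10, 79890853 to 79892655, plus strand), had 0 reads in all 6 libraries, which allows up to 0.162 to 0.209 FPKM a library at a floor of 3 reads. Reads this few cannot show a difference between groups for either gene.

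Serping1, which encodes C1 inhibitor, the serpin that blocks C1r and C1s (ENSMUSG00000023224, chromosome 2, 84765387 to 84775444, minus strand), had 3, 0 and 4 reads across si-NC against 2, 0 and 3 across si-CDCP1. Cd55, decay-accelerating factor, which takes apart the enzymes that cut C3 (ENSMUSG00000026399, chromosome 1, 130439027 to 130462744, minus strand), had 1, 1 and 0 reads across si-NC against 5, 1 and 3 across si-CDCP1. The ratio of reads per implied library total, si-CDCP1 over si-NC, was 1.26 for Cfb (exact binomial 95% interval 0.399 to 4.08) and 0.788 for Serping1 (0.197 to 2.88). For Cd55, with 2 reads against 9, it was 4.96 (1.03 to 47.2), an interval that holds counting error and no spread between cultures. The si-NC libraries and the si-CDCP1 libraries thus held C1r and C1s transcripts with their inhibitor at 0 to 0.0962 FPKM, and abundant C3 with factor B at 0.0869 FPKM or less and factor D at 0. Whether a mismatch of species and build lowers single genes was not tested.

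**Figure D2:**
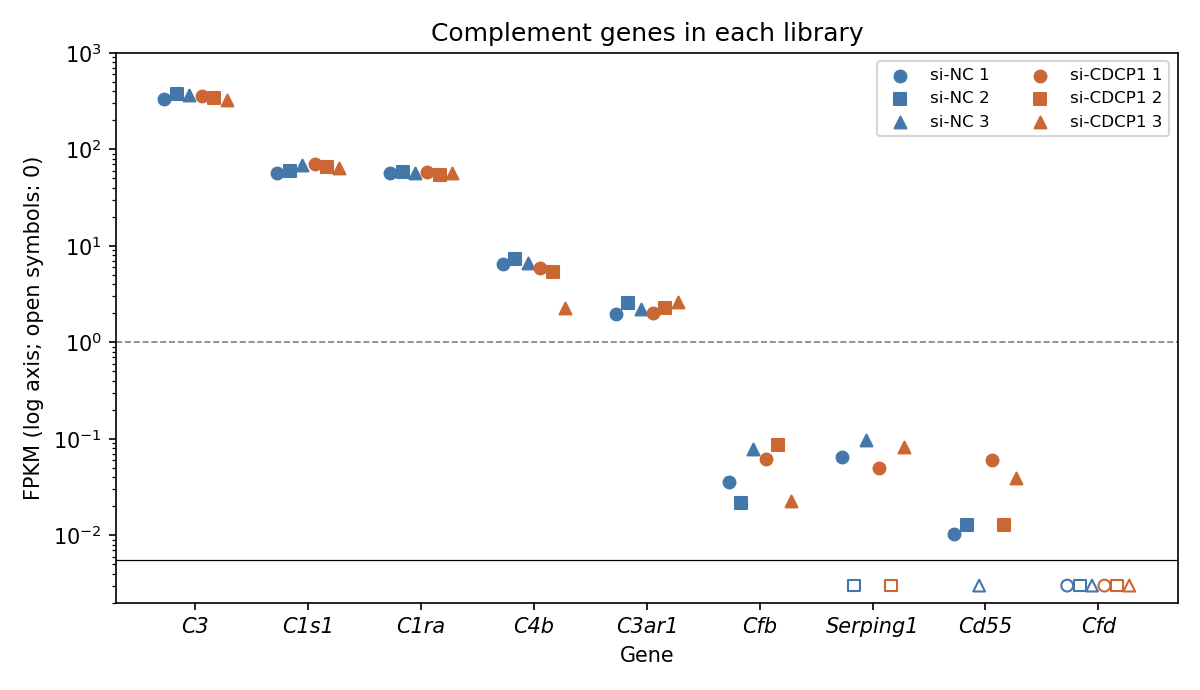
FPKM (log axis) of the 9 complement genes in each of the 6 libraries; blue symbols are si-NC, orange symbols si-CDCP1, the shape gives the replicate, the dashed line marks 1 FPKM, and open symbols below the solid line are values of 0. C3, C1s1, C1ra, C4b and C3ar1 lie above 1 FPKM in every library, and the orange triangle of C4b, at 2.25 FPKM, lies apart from its other 5 values.

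Between si-CDCP1 and si-NC, none of the members that could be tested passed. The test, limma on log2(FPKM + 1) over the 12080 genes that averaged 1 FPKM or more, two-sided with Benjamini-Hochberg (BH) adjustment, covered 5 of the 9 genes, and the other 4 were below that level. With C4b left out of testing, 0 of 4 genes had an adjusted p under 0.05, against 0 of 12080 genes (0.0%), and 0 of the 4 had an unadjusted p under 0.05, against 1722 genes (14.3%). Limma voom on the recovered reads likewise called 0 of the 4 genes, and 5 of 14365 genes (0.0348%).

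C3 averaged 357 ± 21.6 FPKM in the si-NC libraries and 341 ± 13.7 FPKM in the si-CDCP1 libraries (SD, n = 3 each), and the log2 difference was -0.07 (SE 0.061). In the limma test its BH-adjusted p was 0.619, with a range of 0.335 to 0.888 over the 16 other settings tried. C1s1 averaged 62.2 ± 6.68 against 66.7 ± 3.10 FPKM, a log2 difference of 0.10 (SE 0.081, limma adjusted p = 0.555, range 0.318 to 0.871). For C1ra the means were 57.2 ± 0.601 and 56.1 ± 2.10 FPKM, with a log2 difference of -0.03 (SE 0.047, limma adjusted p = 0.787, range 0.176 to 0.996). C3ar1 had means of 2.24 ± 0.281 and 2.29 ± 0.311 FPKM and a log2 difference of 0.02 (SE 0.11, limma adjusted p = 0.933, range 0.678 to 0.968 over 15 settings). The differences of these 4 genes were within 1.5 times their standard errors. C3ar1 had no stable sign: its log2 difference was -0.05 without si-CDCP1 replicate 3 and -0.01 with all libraries set to the same FPKM sum. The labels do not say that replicates are separate isolations, and p-values then reflect the spread of these 3 and 3 libraries alone, which may be technical.

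C4b averaged 6.84 ± 0.471 FPKM in the si-NC libraries and 4.50 ± 1.96 FPKM in the si-CDCP1 libraries (SD, n = 3 each), a log2 difference of -0.59. Without si-CDCP1 replicate 3 the log2 difference was -0.24. Among the 5 members that were tested or described at this level, C4b was the only gene whose groups did not overlap, with si-CDCP1 below si-NC. Of all 12080 genes, 10.6% lay below in this way and 14.4% above. The low C4b value of si-CDCP1 replicate 3 was part of how the genes were chosen. Nothing is therefore read from the separation of the C4b groups or from the difference over all libraries. From bulk RNA, fewer cells that make C4b and less C4b RNA per cell cannot be told apart.

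**Figure D3:**
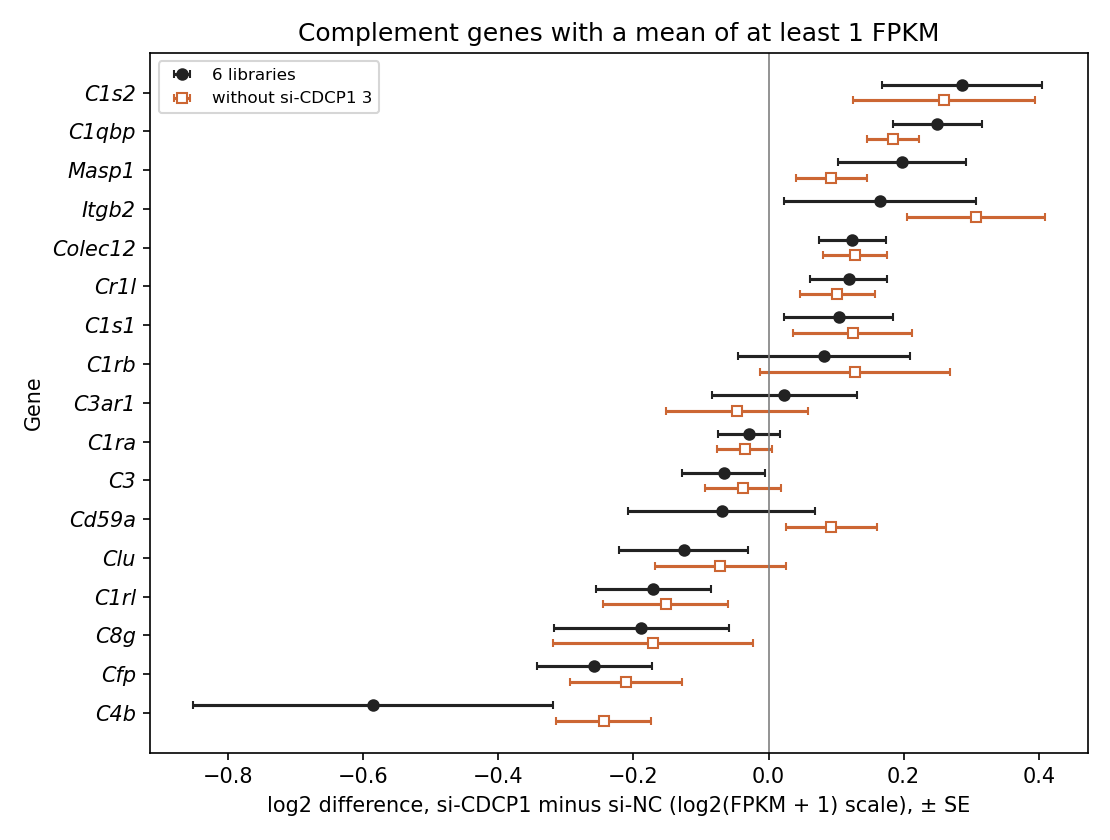
Log2 differences, si-CDCP1 minus si-NC, with their standard errors, for the 17 complement genes that averaged 1 FPKM or more, from all 6 libraries (black circles) and without si-CDCP1 replicate 3 (orange squares). C4b goes from -0.59 to -0.24, and Cd59a and C3ar1 change sign.

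In si-CDCP1 replicate 3 the C4b value rested on 200 reads, against 499 to 742 reads in the other libraries. By counting error alone that depth gives an exact Poisson 95% interval of 1.95 to 2.58 FPKM, and the next lowest library, si-CDCP1 replicate 2, has one of 4.91 to 5.87 FPKM. C4b in this library was 0.354 times the mean of the other 5. A gap of more than 1.5-fold below every other library occurred in this library for 198 of 12080 genes (1.64%), and a gap of that size above every other library for 0.919%. C4b is among the former, but its low value here was part of how the genes were chosen, so nothing is read from the interval or the gap. C3 was lowest of all 6 libraries there too, by a small margin (327 against 332 FPKM in si-NC replicate 1), while C3ar1 was highest and C1s1 and C1ra lay within the range of the others. Of all tested genes, 30.0% were lowest and 34.0% highest in this library, so that being lowest or highest there is common.

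The nearest relative of C4b had few reads in every library. C4a, the neighbouring copy 65209 bases from C4b on chromosome 17, is listed as a processed transcript and had 23, 27 and 27 reads across si-NC against 14, 13 and 19 across si-CDCP1. Its FPKM was 2.22% to 3.65% of that of C4b in 5 libraries and 8.72% in si-CDCP1 replicate 3. The last share has the low C4b value as its base, which was part of how the genes were chosen, so nothing is read from it. The ratio of group means, si-CDCP1 over si-NC, was 0.655 for C4a and 0.657 for C4b, the latter with that low value included. C4a was 0.184 to 0.267 FPKM in the si-NC libraries and 0.129 to 0.196 FPKM in the si-CDCP1 libraries, and its interval in si-CDCP1 replicate 3 (0.118 to 0.306 FPKM) covered the values of all 6 libraries. Because C4a and C4b are near-identical copies in mouse and the treatment of reads that match both is not given in the sources used here, the split between them is uncertain.

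The same holds for the copies of C1s1 and C1ra in the chromosome 6 cluster. C1s2 had 2.17, 2.63 and 3.19 FPKM in the si-NC libraries and 3.67, 3.07 and 3.61 FPKM in the si-CDCP1 libraries, or 3.80% to 5.58% of C1s1. C1rb had 1.45, 1.49 and 2.14 FPKM in the si-NC libraries and 2.09, 1.77 and 1.66 FPKM in the si-CDCP1 libraries, or 2.57% to 3.74% of C1ra. C1rl, a related protease gene 1761 bases from C1ra, averaged 4.04 ± 0.249 FPKM in the si-NC libraries and 3.49 ± 0.382 FPKM in the si-CDCP1 libraries (SD, n = 3 each). None of the 3 passed the limma test (adjusted p = 0.346, 0.778 and 0.392 for C1s2, C1rb and C1rl). Cd55b, the second mouse copy of decay-accelerating factor, had 0 reads in every library. The antisense gene that overlaps C1s1 and the other genes that overlap C3, Cfb or Cd55 in the table were listed at 0.

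**Figure D4:**
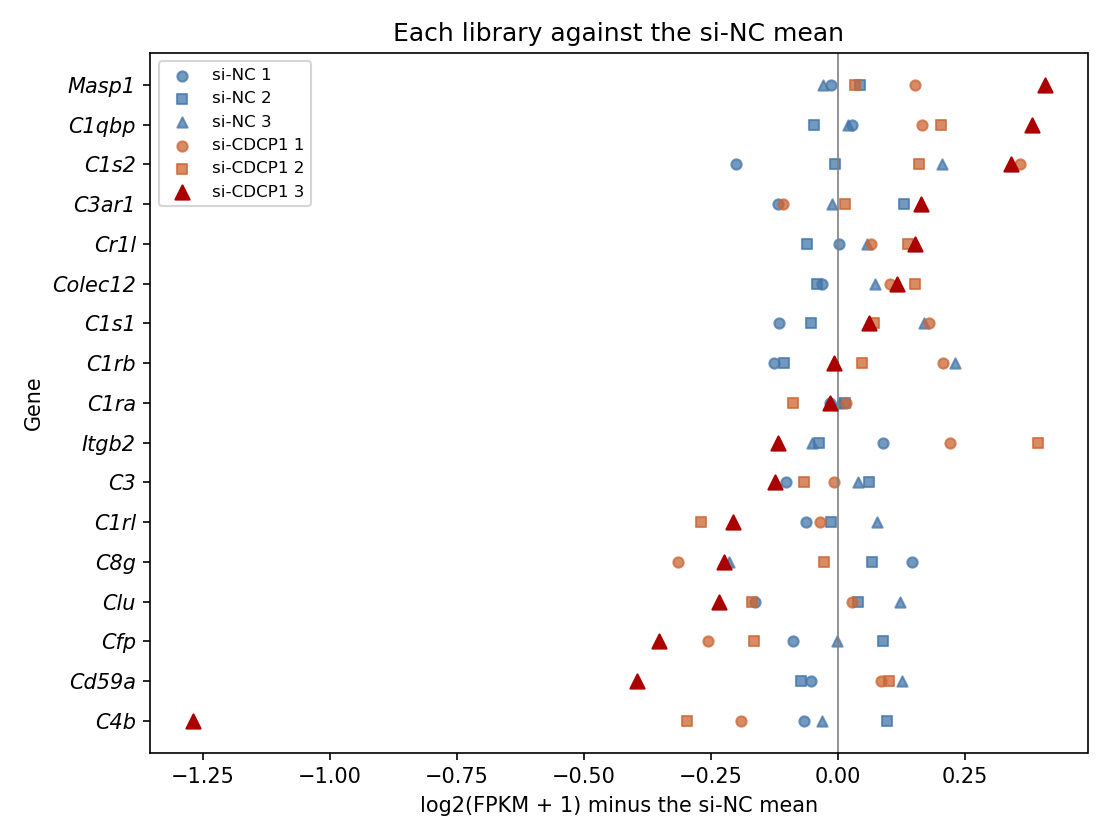
Log2(FPKM + 1) of each library minus the si-NC mean for the 17 complement genes that averaged 1 FPKM or more, ordered by si-CDCP1 replicate 3 (dark red triangles); blue symbols are si-NC and orange symbols si-CDCP1 replicates 1 and 2. The dark red triangle is lowest of all libraries for 6 genes, C4b farthest, and highest for 4 genes.

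The other complement genes, 50 rows for 49 gene names, showed the same mixture of abundant and absent parts. Of these rows 12 reached a mean of 1 FPKM, 21 had some reads below that level and 17 had none. Of the 12, limma called 0 over all genes, and 7 had positive and 5 negative log2 differences with a median of 0.10. An unadjusted limma p under 0.05 was found for 4 of the 12, a larger share than the 14.3% of all genes tested. The list was chosen with earlier results of these data known, so nothing is read from that share. Over all 12080 genes the median was 0.01, with 6314 positive (52.3%). In 3 of the 12 the si-CDCP1 libraries lay above every si-NC library (C1qbp, Colec12 and Cr1l) and in 1 below (Cfp), beside the backgrounds of 14.4% and 10.6%.

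In the recognition steps, the subunit genes C1qa, C1qb and C1qc had 0 reads in all libraries, as did the mannose-binding lectin genes Mbl1 and Mbl2 and the ficolin gene Fcnb. C2, which joins C4 in the enzyme that cuts C3 and whose gene ends 85 bases from Cfb, had 12 reads in the si-NC libraries and 13 in the si-CDCP1 libraries. Masp1, a protease of the lectin pathway, was present at 13.2, 13.8 and 13.1 FPKM in the si-NC libraries and 14.97, 13.7 and 18.1 FPKM in the si-CDCP1 libraries, a log2 difference of 0.20 (SE 0.095, limma adjusted p = 0.383) that was 0.09 without si-CDCP1 replicate 3. Its partner Masp2 had 12 and 6 reads. Colec12, a membrane collectin that binds sugars, had 33.2, 32.9 and 35.7 FPKM in the si-NC libraries and 36.5, 37.8 and 36.9 FPKM in the si-CDCP1 libraries (log2 difference 0.12, limma adjusted p = 0.343).

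In the alternative and terminal steps most genes were near 0. Cfp, properdin, which stabilises the alternative pathway enzyme, had 3.04, 3.57 and 3.29 FPKM in the si-NC libraries and 2.60, 2.83 and 2.36 FPKM in the si-CDCP1 libraries. The groups did not overlap, and the log2 difference of -0.26 (SE 0.086) had a limma adjusted p of 0.305. Of the 7 terminal genes 4 (C6, C7, C8a and C8b) had 0 reads, and Hc, which encodes C5, had 9 reads in the si-NC libraries and 2 in the si-CDCP1 libraries. C8g, which encodes the small chain of C8, averaged 2.09 ± 0.392 FPKM in the si-NC libraries and 1.70 ± 0.279 FPKM in the si-CDCP1 libraries (SD, n = 3 each). The receptor gene C5ar1 had 0 reads and C5ar2 had 2 reads in the si-NC libraries and 0 in the si-CDCP1 libraries.

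The regulators present were others than Cd55 and Serping1. Clu, clusterin, a chaperone that also binds the terminal complex, averaged 47.1 ± 4.78 FPKM in the si-NC libraries and 43.1 ± 4.23 FPKM in the si-CDCP1 libraries (SD, n = 3 each). Cd59a, which stops the pore from forming, had 15.5, 15.2 and 17.6 FPKM in the si-NC libraries and 17.1, 17.3 and 11.995 FPKM in the si-CDCP1 libraries, with si-CDCP1 replicate 3 lowest. Its log2 difference of -0.07 (limma adjusted p = 0.830) was 0.09 without that library. Cr1l, the rodent membrane inhibitor known as Crry, had 8.93, 8.50 and 9.31 FPKM in the si-NC libraries and 9.37, 9.90 and 10.0 FPKM in the si-CDCP1 libraries (log2 difference 0.12, limma adjusted p = 0.383).

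C1qbp was the only complement gene, C4b left untested, that passed in any setting tried. It encodes a mitochondrial protein that also binds C1q, and had 56.4, 53.5 and 56.1 FPKM in the si-NC libraries and 62.2, 63.8 and 72.4 FPKM in the si-CDCP1 libraries, higher in 3 of 3 libraries than any si-NC library. Its log2 difference was 0.25 (SE 0.066) with a limma adjusted p of 0.267, and the adjusted p ranged from 0.0259 to 0.643 over the 16 other settings. Without si-CDCP1 replicate 3, where its level was highest, C1qbp had a log2 difference of 0.18 (limma adjusted p = 0.116). It passed in limma with library weights (adjusted p = 0.0270, where 865 of 12080 genes, 7.16%, passed and si-CDCP1 replicate 2 alone carried a weight of 5.11, against 0.165 to 1.37 for the others) and in voom without si-CDCP1 replicate 3 (adjusted p = 0.0259, where 493 of 14267 genes, 3.46%, passed). Itgb2, the beta chain of the complement receptor integrins, averaged 1.62 ± 0.141 FPKM in the si-NC libraries and 1.96 ± 0.518 FPKM in the si-CDCP1 libraries (SD, n = 3 each), while its partner chain Itgam had 0 reads.

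Genes that induce complement genes or accompany them in the acute phase response were followed in a list of 20, of which 16 were tested and 0 passed in limma over all genes. Of the 16, 10 had positive and 6 negative log2 differences, with a median of 0.02, and 2 had an unadjusted p under 0.05, a share near the 14.3% of all genes tested. Cebpb, a transcription factor of the acute phase response, had 106, 112 and 110 FPKM in the si-NC libraries and 139, 138 and 128 FPKM in the si-CDCP1 libraries. Its groups did not overlap, and its log2 difference of 0.30 (SE 0.052) had a limma adjusted p of 0.238, with a range of 0.000199 to 0.643 over 16 settings. Saa3, an acute phase apolipoprotein, had 18.5, 19.3 and 22.7 FPKM in the si-NC libraries and 26.2, 25.4 and 11.95 FPKM in the si-CDCP1 libraries, high in replicates 1 and 2 and lowest of all in replicate 3. Lcn2, lipocalin 2, was lowest in that library as well (15.4 FPKM, against 17.9 to 21.0 FPKM), whereas Il6st, the signalling chain of the IL-6 receptor, was highest (46.7 FPKM, against 39.3 to 41.9 FPKM). Rela, a subunit of NF-kB, was highest there too, at 84.3 FPKM, and Ifngr1, a chain of the interferon gamma receptor, averaged 19.3 ± 0.270 and 19.5 ± 0.276 FPKM (SD, n = 3 each). Proteases and serpins of coagulation and fibrinolysis, 8 in all with 5 tested, had 2 positive and 3 negative log2 differences, and 0 passed.

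Among the 8148 genes that averaged 5 FPKM or more, the patterns most like that of C3 over the 6 libraries belonged to Xdh, Tef, Pank4, Mier2 and Ddr1, with Pearson r from 0.964 to 0.996. Those most like C4b were Wdr6, Arhgef1, H6pd, Ptgfrn and Dnmt1, with r from 0.995 to 0.997. All 5 of the latter were lowest in si-CDCP1 replicate 3, for example Dnmt1, the maintenance DNA methyltransferase, at 37.9 FPKM against 47.4 to 51.1 FPKM. They were picked for likeness to C4b, whose low value there was part of how the genes were chosen, so nothing is read from this. With only 6 libraries, among them a library that stands apart, such r are descriptions only.

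Markers of macrophages, adipocytes and hepatocytes, which also make complement, were mostly low or absent, whereas the fibroblast list summed higher than the smooth muscle list in every library. Of 9 macrophage rows 3 had 0 reads in any library, Adgre1 and both rows of Itgam, and the list sum was 13.9 to 16.1 FPKM in the si-NC libraries and 14.8 to 16.2 FPKM in the si-CDCP1 libraries, most of it Cd14 (11.0 to 13.6 FPKM). Of 7 adipocyte genes, the usual source of Cfd, Adipoq, Lep and Cidec had 0 reads, and the sum was 9.39 to 11.97 FPKM in the si-NC libraries and 12.3 to 18.6 FPKM in the si-CDCP1 libraries, from Lpl and Fabp4. The hepatocyte genes Alb, Apoa1 and Ttr summed to at most 0.149 FPKM. Of 7 fibroblast genes 3 reached a mean of 1 FPKM (Col1a1, Pdgfra and Dcn), with list sums of 277 to 310 FPKM in the si-NC libraries and 275 to 310 FPKM in the si-CDCP1 libraries. The other 4 fibroblast genes, and 5 of the 8 smooth muscle genes, averaged less than 1 FPKM. Each sum thus rests on a few genes and does not identify the cell type. The smooth muscle sum was 60.7 to 65.8 FPKM in the si-NC libraries and 60.5 to 93.8 FPKM in the si-CDCP1 libraries. It was highest in replicate 3, where C4b was lowest. The 3 tested smooth muscle genes, the 2 tested adipocyte genes and Kit were all highest there, as were 34.0% of all genes tested. Of the tested fibroblast and macrophage genes, 1 of 3 each was highest there. Any part of these marker levels in the C4b value was not tested. Endothelial genes summed to at most 0.874 FPKM, and of the mast cell and neutrophil genes Kit alone reached 1 FPKM, at 4.11 to 9.18 FPKM.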

How the data were processed

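The values are FPKM that the authors deposited in a single table for 6 libraries with mouse Ensembl identifiers and gene lengths, per the file headers; the build is mm10 per the submitters' processing notes. For the aligner, the counter and strandedness, the sources used here give nothing. Reads were recovered because FPKM times gene length rose in equal steps (100.0% of the values above 0 lay within 0.01 of an integer). The listed reads were 98.4% to 104% of the totals that the steps imply. These totals equalled ones set by the median ratio of reads between libraries (largest difference 8.9e-14%). The deposited values were thus already scaled between libraries, and the totals are not plain library sizes. Members were matched by gene name. They and the gene lists, tests and naming rules (all members, other complement genes of at least 1 FPKM, the 5 likest genes of C3 and C4b, at most 6 of each other list by level) were chosen with earlier results of these data known, and exceptions were named after their values were seen. The test was limma 3.58.1 (R 4.3.3) with an intensity trend on log2(FPKM + 1), for genes averaging 1 FPKM or more, threshold 0.05 on BH-adjusted p. Log2 differences on this scale understate the change of low genes. Other settings were a pseudocount of 0.1, no filter or a mean of 5 FPKM, equal sums, quantile normalisation, no trend, library weights, a replicate block, each library left out, and limma voom on genes with at least 10 reads in 3 libraries, with and without si-CDCP1 replicate 3. The fits were also run on simulated reads. That simulation gave all genes and libraries the same spread setting and had no library that stood apart, so it does not speak for these libraries. Intervals and floors (3 reads) cover counting error only. One gene of the complement list is not reported here and is left out of its counts. No sequences were used here.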

Additional observations from a re-analysis of the deposited data

How the results depend on the processing

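The 4 tested members had 0 calls in every setting tried. Over all genes the count of calls, 0 in limma on log2(FPKM + 1), was 7 without a filter, 4 with a mean of at least 5 FPKM, 1 with equal FPKM sums, 2 with quantile normalisation, 865 with library weights (558 higher, 307 lower), 5 in voom on recovered reads and 493 in voom without si-CDCP1 replicate 3 (342 higher, 151 lower). Leaving out each library in turn gave 0 to 1. With the replicate number as a block the count was 1, and 0 members passed. Deviations of same-numbered libraries correlated between -0.02 and 0.03 across genes. From so few libraries a group, such values cannot show whether the numbers pair the cultures, which the labels do not say. Signs changed for 3 genes whose differences were small. C1ra ranged from -0.052 to 0.00053 with each library left out. C3ar1 was -0.014 with equal sums, -0.056 in voom without si-CDCP1 replicate 3, and -0.047 to 0.089 with each library left out (-0.036 without si-NC replicate 1). Cd59a was 0.079 with library weights, 0.098 in voom without si-CDCP1 replicate 3 and -0.15 to 0.093 with each library left out. The cause was not tested. C4b kept a negative difference throughout. Of 281 values for 18 genes, 269 kept direction and side of the threshold, or for C4b moved by less than the replicate spread. The 4 that came to pass belonged to C1qbp and Cebpb. For C4b the replicate spread takes in the low value of si-CDCP1 replicate 3, so staying within it says little. Its log2 difference was -0.59 with all libraries and -0.24 without that replicate. Depth limits Cfb, Cfd, Serping1 and Cd55, with at most 5 reads a library.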
